A study of Mus musculus with 6 samples.

Results

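Mouse LβT2 cells treated with activin A for 6 h were compared with LβT2 cells given buffer for the same time. LβT2 (Lbeta T2 in the labels) is a mouse pituitary cell line of the gonadotrope lineage, the cells that make luteinizing hormone and follicle-stimulating hormone. The 6 h activin array and the 6 h vehicle array are 2 of the 6 arrays of the series, which has 1 array for each of activin and vehicle at 1, 2 and 6 h. Both cultures were seeded in flasks for 16 h in medium free of serum and phenol red. The activin culture then received recombinant human activin A at 30 ng/ml, and the vehicle culture received the buffer in which activin was formulated, which contained sodium chloride and Tris. The samples come from 1 cell line, and nothing in the labels describes a second culture of any condition, so the 6 h difference has no replicate and no test was made.

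The array carries probe sets, groups of short oligonucleotides that report 1 transcript, and many genes have several of them, called sister probe sets here. The value of a probe set is its deposited linear signal. Probe sets were kept when their mean signal over the 6 arrays reached a limit fixed close to the median signal of the arrays, which left 22813 of 45037 probe sets and, through the 19825 that name 1 gene, 11500 genes. The 2 compared arrays enter that mean, so a dim probe set can pass through the array on which it is high. A gene is given by its brightest kept probe set, and its log2 ratio is the activin signal over the vehicle signal. Just inside the limit was C2cd5, with a mean signal of 155.02, 156.2 on the activin 6 h array and 149.0 on the vehicle 6 h array. Just outside it was Itgb7, with a mean signal of 154.95, 138.2 on the activin 6 h array and 154.8 on the vehicle 6 h array. Signals under the limit are called dim, and most ratios that rest on one are also given with the dim signal raised to the limit.

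Activin is a dimer of inhibin beta subunits. It binds type II receptors that activate a type I receptor, which phosphorylates the receptor Smads Smad2 and Smad3, and these enter the nucleus with Smad4 and bind DNA at short Smad elements. In gonadotropes activin is best known for inducing Fshb, the gene of the subunit that makes follicle-stimulating hormone distinct. Many direct targets of the pathway, such as Smad7 and Skil, encode inhibitors of the pathway itself.

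Of the gonadotropin genes that passed the limit, the largest difference at 6 h was in Lhb, the gene of the luteinizing hormone beta chain, and among known targets of the TGF-beta family the largest was Cdkn2b, an inhibitor of the cell cycle kinases Cdk4 and Cdk6. The 250 bases before the start of each gene are shown because they are the 2 promoters the description of pathway genes turns on. Both are from RefSeq on GRCm38.p6, Lhb on the plus strand and Cdkn2b on the minus strand. Capitals in Lhb mark the letters TGNCCTTG (the SF-1 element), CNCCCCCA (the Egr1 element) and GATTA (the Pitx element), and capitals in Cdkn2b mark CAGAC (the Smad half-site), each searched on both strands.
Lhb, chr7:45420696-45420945: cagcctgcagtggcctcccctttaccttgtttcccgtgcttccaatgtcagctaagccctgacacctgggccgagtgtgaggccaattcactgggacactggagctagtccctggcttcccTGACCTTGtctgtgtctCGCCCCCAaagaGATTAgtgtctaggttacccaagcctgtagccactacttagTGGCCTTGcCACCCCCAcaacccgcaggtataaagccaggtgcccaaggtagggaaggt
Cdkn2b, chr4:89311033-89311282: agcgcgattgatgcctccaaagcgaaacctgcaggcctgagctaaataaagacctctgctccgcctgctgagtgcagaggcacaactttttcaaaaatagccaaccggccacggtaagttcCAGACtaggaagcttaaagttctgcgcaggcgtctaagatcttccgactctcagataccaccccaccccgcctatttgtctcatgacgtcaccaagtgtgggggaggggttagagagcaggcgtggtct

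The Lhb window held 2 SF-1 matches, 2 Egr1 matches and 1 Pitx match, with no overlap among them. It also held 1 CAGAC on the opposite strand, which overlapped an SF-1 match and is not capitalized. The Cdkn2b window held 1 CAGAC and, not capitalized, 1 Egr1 match on the opposite strand. Of 32851 promoter windows of the same length in the RefSeq table, 5.53% held TGNCCTTG, 12.8% held CNCCCCCA, 19.8% held GATTA and 42.2% held CAGAC. The longer Smad palindrome GTCTAGAC was in 0.167% of all windows and in neither promoter shown, and the Inhbb window held no match to any of these motifs. Windows in the table matched 34 of the 42 higher genes on which all probe sets agree (described below), 52 windows in all, of which 26 held CAGAC. A match describes letters in the window and is not evidence of a bound site.

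The 6 arrays were alike in scale, with trimmed means of 500 each and median signals between 151 and 166. Gonadotrope markers were bright: 7 of 8 passed the signal limit, and their summed signal was 30677.1 on the activin 6 h array and 28917.9 on the vehicle 6 h array. Fshb itself was below the limit on all 6 arrays, with 78.4 on the activin 6 h array and 38.7 on the vehicle 6 h array, so no fold is given for it. Among markers of other pituitary cells, the growth hormone and prolactin genes did not pass the limit, while Drd2 (993.1 with activin and 796.7 with vehicle at 6 h), Tshb (520.8 and 450.9), Crhr1 (544.2 and 575.7) and Pomc (315.0 and 159.3) did. The thyrotrope marker Trhr (38.9 and 46.0), the corticotrope marker Tbx19 (125.9 and 154.1) and the somatotrope marker Ghrhr (73.2 and 111.9) did not pass. None of 3 progenitor markers passed. Endothelial markers passed in 3 of 3 cases, with a summed signal of 2349.5 with activin and 1726.1 with vehicle; fibroblast markers passed in 1 of 4 cases and summed to 633.2 and 538.1, and blood markers passed in 2 of 4 cases and summed to 986.5 and 1202.8 on the same arrays. Their part in the results below was not tested. The 18S rRNA control (5′ probe set) stood at 248 with activin and 190.3 with vehicle at 6 h, but at 12201.8 on the activin 1 h array, which enters every 1 h ratio given below.

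With activin for 6 h, 448 genes lay 1.5-fold or more above vehicle (3.9% of 11500) and 381 lay 1.5-fold or more below it (3.31%), 829 in all (7.21%). At least 2-fold, the counts were 113 higher and 77 lower. Most genes differed little: 7982 of them (69.4%) lay within 1.2-fold, and the median log2 ratio of all genes was −0.025. Between vehicle arrays, which received no activin, 426 genes (3.7%) were at least 1.5-fold apart between 6 h and 2 h, 501 (4.36%) between 6 h and 1 h, and 415 (3.61%) between 2 h and 1 h. Vehicle cultures of different times thus differed in more than 3% of genes, and a 1.5-fold ratio of 1 gene at 6 h is not by itself beyond the difference between vehicle cultures. A change in RNA per cell and a change in the mix of cells in the culture cannot be told apart in such bulk samples.

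Brightness set how the activin pair and the vehicle pair compared. Among genes with a mean signal from the limit to 500, 7.62% passed 1.5-fold upward with activin and 6.49% downward, against 9.09% apart either way between the vehicle 6 h and 2 h arrays. For genes from 500 to 1500 the shares were 2.52% and 2.4%, against 1.31%. Above 1500 they were 1.2% (40 genes) and 0.69% (23 genes), against 0.33% (11 genes). The excess over the vehicle pair was thus a larger multiple for bright genes, as the plot of ratio against signal shows.

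**Figure D1:**
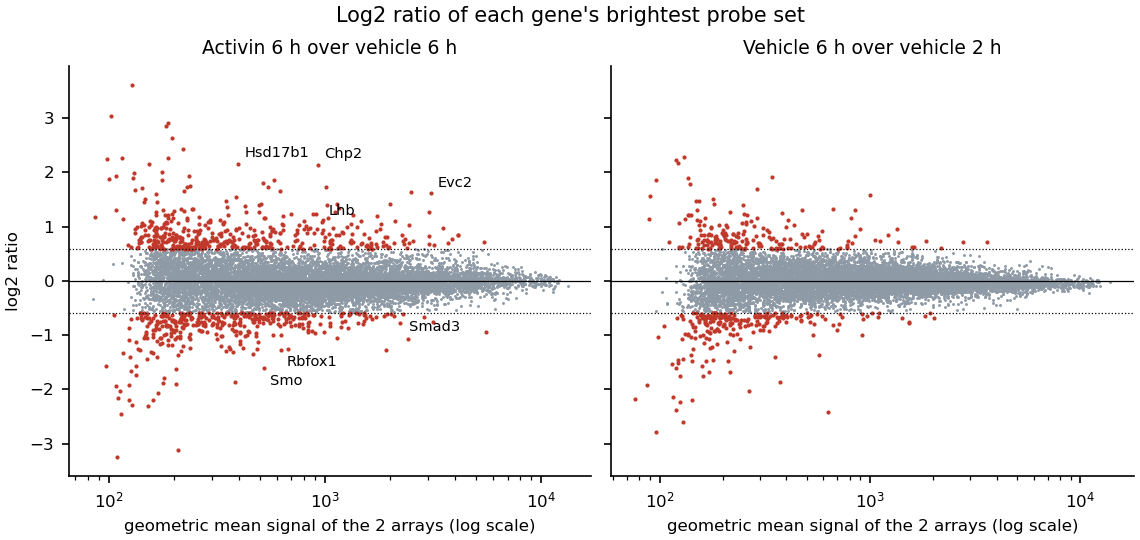
Log2 ratio of each of 11500 genes against the geometric mean signal of the 2 arrays (log scale), for activin 6 h over vehicle 6 h on the left and vehicle 6 h over vehicle 2 h on the right; red points are at least 1.5-fold apart (dotted lines). The activin panel has 829 red points and the vehicle panel 426, and red points at high signal are more numerous in the activin panel.

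Sister probe sets gave a second reading of the same RNA on the same array, which checks the probe set and not the culture. Of the 5062 genes with sisters, 42 had every kept probe set at least 1.5-fold higher with activin at 6 h (0.83%) and 10 had every one at least 1.5-fold lower (0.198%), 52 genes in all (1.03%). In the vehicle comparisons the same rule found 5 genes between 6 h and 2 h (0.0988%), 9 between 6 h and 1 h (0.178%) and 2 between 2 h and 1 h (0.0395%). The activin pair thus had more such genes than any pair of vehicle arrays, and most of them were higher. In 33 of the 42 and in 8 of the 10, both 6 h signals of every probe set were at or above the limit.

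**Figure D2:**
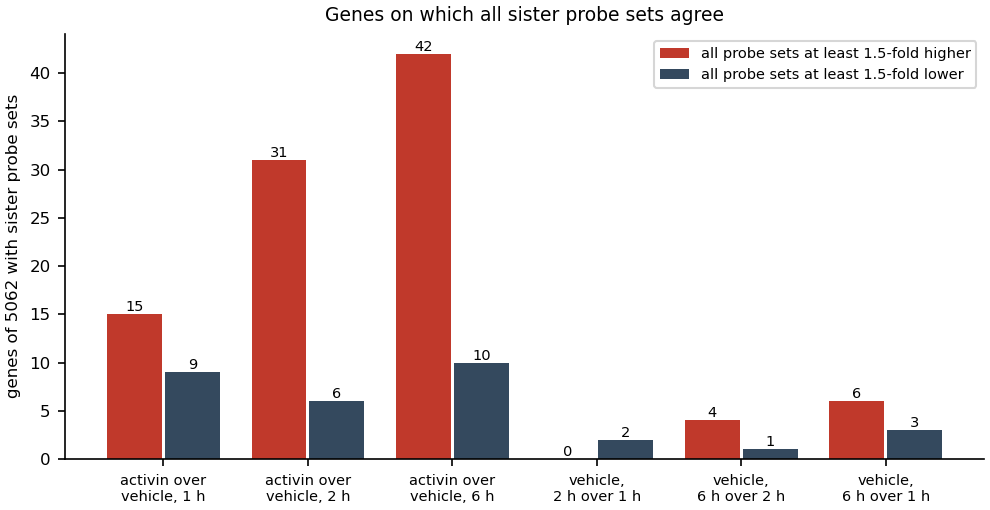
Number of genes, of 5062 with sister probe sets, whose kept probe sets were all at least 1.5-fold higher (red) or all at least 1.5-fold lower (dark), for activin over vehicle at 1, 2 and 6 h and for the 3 pairs of vehicle arrays. The activin bars at 6 h are 42 and 10, and no vehicle pair has more than 6 genes in a direction.

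The direction of a second probe set held more often for genes that were higher than for genes that were lower. Of the 448 higher genes, 127 had a second probe set, and the second brightest was also higher in 103 of them (81.1%, against 50.9% of all genes with sisters). It was at least 1.5-fold higher in 49 and at least 1.5-fold lower in 5. Of the 381 lower genes, 96 had a second probe set, which was also lower in 57 (59.4%, against 49.1% of all genes with sisters), by at least 1.5-fold in 13, while in 8 it was at least 1.5-fold higher. Sister probe sets of a gene can share probes, so they are not independent readings.

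The highest genes by sister agreement included a Wnt ligand, an iron exporter, a chemokine and cytoskeletal adaptors. Atf7ip2, which encodes a chromatin cofactor, had the highest median log2 ratio, 2.24, but it rested in part on dim vehicle signals: its probe sets read 387.8 and 322.5 on the activin 6 h array, against 154.5 and 36.4 on the vehicle 6 h array. With dim signals raised to the limit these came to 2.50-fold and 2.08-fold.

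Wnt5b, a ligand of noncanonical Wnt signalling, read 279.9, 662.6 and 663.4 on the activin arrays at 1, 2 and 6 h, against 202.7, 217.5 and 227.0 on the vehicle arrays at the same times. All 3 activin signals were above all 3 vehicle signals, and the 6 h ratio was 2.92-fold. At 6 h the other Wnt5b probe set had 627.9 on the activin array and 135.9 on the vehicle array, which is 4.05-fold after raising the vehicle signal to the limit.

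Slc40a1 encodes ferroportin, which exports iron from cells. On the activin arrays it read 909.0, 1616.0 and 1832.9 at 1, 2 and 6 h, against 592.3, 763.6 and 554.5 on the vehicle arrays, and the 6 h ratio was 3.31-fold for this probe set and 2.25-fold for its sister. All 3 activin signals lay above all 3 vehicle signals. At 6 h Cx3cl1, the membrane-bound chemokine fractalkine, read 1867.3 with activin and 731.4 with vehicle, and its 2 probe sets were close, at 2.55-fold and 2.57-fold.

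Sh3kbp1, an adaptor of endocytosis also called CIN85, differed from those genes in time. It read 1698.1, 1924.3 and 3252.5 with activin at 1, 2 and 6 h, against 1671.4, 1782.7 and 1222.0 with vehicle. The ratio lay near 1 at 1 h and 2 h, and at 6 h the activin signal was the highest of the 6 arrays and the vehicle signal the lowest. Its 4 probe sets were between 1.76-fold and 3.50-fold higher at 6 h.

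The remaining genes named by this rule were the potassium channel interacting protein Kcnip3 (median log2 ratio 1.78 over its probe sets), the adhesion receptor Adgra1 (1.66), the integrin-linked adaptor Tln2 (1.37), the RNA-binding protein Samd4 (1.26), Fam13a (1.19), the tubulin polyglutamylase subunit Tpgs2 (1.14) and the mitotic kinase Nek6 (1.13). Kcnip3 was uneven, and its brighter probe set was 1.59-fold higher at 6 h. The dimmer one had 658.8 on the activin 6 h array and 89.5 on the vehicle 6 h array, 4.25-fold after raising the vehicle signal to the limit. At 1 h and 2 h that probe set read 94.7 and 179.5 with activin, and 87.3 and 112.3 with vehicle. Its mean signal of 203.7 passed the limit through the activin 6 h array, so the sister agreement of Kcnip3 depends on that array. The dimmest kept Adgra1 probe set read 308.0 on the activin 6 h array and 38.7 on the vehicle 6 h array. That was 1.99-fold after raising the vehicle signal to the limit. All its vehicle signals were dim, and its mean signal of 175.8 passed the limit through the activin arrays. Tln2 also had a dim vehicle signal at 6 h among its probe sets. Tpgs2 was the most even of those with many probe sets, with 4 between 2.09-fold and 2.30-fold. Nek6 had 3 probe sets between 1.95-fold and 2.59-fold higher, or 1.95-fold in place of 2.59-fold with the dim vehicle signal raised to the limit.

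Lower genes on which all probe sets agreed numbered 10, and Rbfox1, which encodes a splicing regulator, had the lowest median log2 ratio, −1.13. Its brightest probe set read 1047.5, 737.6 and 402.5 on the activin arrays at 1, 2 and 6 h, against 1004.6, 831.1 and 968.7 on the vehicle arrays. The 6 h activin signal was below all 3 vehicle signals, and all 4 probe sets were at least 2.02-fold lower, or at least 1.53-fold with dim signals raised to the limit.

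Smad3, the receptor Smad that carries the activin signal, was lower by 1.52-fold, 1.57-fold and 1.57-fold on its 3 probe sets. Its brightest one read 2983.8, 2728.2 and 1863.6 with activin at 1, 2 and 6 h, against 2867.8, 2785.1 and 2834.5 with vehicle. The 3 vehicle signals were close to each other, and of the activin signals the 6 h one lay clearly below them.

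At 6 h Dbp, a transcription factor of the circadian clock output, read 2431.0 with activin and 4092.9 with vehicle on its brighter probe set, with 1.68-fold and 1.74-fold lower ratios on its 2 probe sets. Igfbp3, a binding protein of insulin-like growth factors, read 1291.3 with activin and 2096.8 with vehicle, and its ratios were 1.62-fold and 1.72-fold lower. Both genes were already lower on the activin 2 h array than on any vehicle array by their brighter probe sets. The other genes were Klhl32 (median log2 ratio −0.95), the glutamate receptor auxiliary subunit Shisa9 (−0.88), the ubiquitin ligase subunit Fbxw7 (−0.78), the O-mannose kinase Pomk (−0.74), the laminin receptor subunit Itga6 (−0.68) and Fads3 (−0.63).

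**Figure D3:**
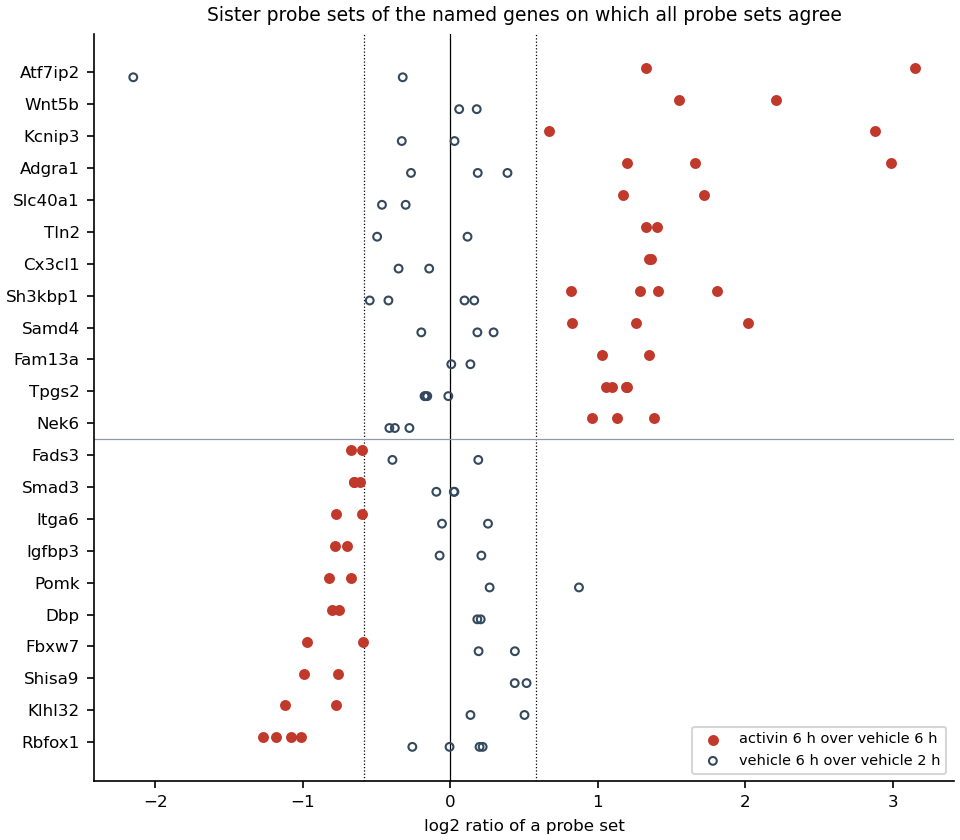
Log2 ratios of single probe sets for the 12 highest genes (top) and the 10 lower genes (bottom) on which all sister probe sets agree, with activin 6 h over vehicle 6 h as filled red points, drawn from signals as deposited, and vehicle 6 h over vehicle 2 h as open points; dotted lines mark 1.5-fold. Red points lie beyond the dotted lines because the genes were chosen that way; of the open points, 1 of Atf7ip2 and 1 of Pomk lie beyond them.

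Genes with a single kept probe set have no sister to check them, and those named here had a signal of at least 500 on the brighter of the 2 arrays at 6 h. That choice depends on the difference itself, since Hsd17b1, Atp2c2, Olfr64 and others reached 500 on only 1 of the 2 arrays. Hsd17b1, the enzyme that converts estrone to estradiol, read 182.0, 466.7 and 839.5 with activin at 1, 2 and 6 h, against 183.1, 209.2 and 187.9 with vehicle. The activin signal was equal to vehicle at 1 h and 4.47-fold higher at 6 h, and it was 4.01-fold above the highest of the 3 vehicle signals.

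Chp2, a calcium-binding relative of calcineurin B, read 778.4, 1604.9 and 1945.5 with activin at those times, against 422.6, 549.9 and 442.8 with vehicle, a 6 h ratio of 4.39-fold. Evc2, a ciliary protein of hedgehog signalling, read 2063.3, 4826.8 and 5423.6 with activin, against 1709.9, 2111.8 and 1765.4 with vehicle, and was 3.07-fold higher at 6 h. In both genes all 3 activin signals were above their own vehicle signals, and the 2 h and 6 h activin signals were above all 3 vehicle signals.

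Csrp2, a LIM-domain protein of muscle and stellate cells, showed a later difference, with 1226.0, 2459.4 and 4431.1 with activin against 1246.5, 1654.1 and 1426.8 with vehicle, 3.11-fold higher at 6 h. Cobl, an actin nucleator, read 768.9, 1019.9 and 1858.1 with activin and 729.6, 748.1 and 694.4 with vehicle, and was 2.68-fold higher at 6 h. The vehicle signals of Cobl were nearly level. The other genes named were the lipid raft protein Rftn1 (3.61-fold), the calcium pump Atp2c2 (515.8 with activin and 69.1 with vehicle, 3.33-fold after raising the vehicle signal to the limit) and the histidine-degrading enzyme Uroc1 (3.52-fold). Uroc1 read 1461.4 on the vehicle 2 h array, above its activin 6 h signal of 967.4. Its activin value thus lay within the range of the vehicle arrays. Atp2c2, with a mean signal of 212.6, passed the signal limit through its activin 6 h signal.

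Among single probe sets that were lower, the T-type calcium channel gene Cacna1h read 507.2, 488.3 and 236.6 with activin at 1, 2 and 6 h, against 581.1, 497.9 and 550.4 with vehicle. Its 6 h activin signal was the lowest of the 6 arrays, and the ratio was 2.33-fold lower. Klhl14 read 777.6, 391.2 and 293.2 with activin, against 788.7, 687.2 and 740.9 with vehicle, 2.53-fold lower at 6 h. Smo, the signal transducer of hedgehog, read 778.5, 941.5 and 298.6 with activin, against 143.7, 643.4 and 913.7 with vehicle. It was 3.06-fold lower at 6 h, but its vehicle signals differed more widely than that among themselves, and the activin 6 h signal lay within their range. The olfactory receptor gene Olfr64 (70.9 with activin and 612.2 with vehicle, 3.95-fold lower after raising the activin signal to the limit), the kinase Mapk7 (2.48-fold), Fbxw16 (2.40-fold), Dcaf4 (2.37-fold) and Tmppe (2.36-fold) completed the group. Fbxw16 also lay within the range of the vehicle arrays. Mapk7 read 238.5 on the activin 6 h array, against 312.8, 248.7 and 591.4 on the vehicle arrays at 1, 2 and 6 h, so its ratio rests mostly on the vehicle 6 h array.

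Vehicle arrays differed from each other in many of the genes counted. The activin 6 h signal was at least 1.5-fold above the highest of the 3 vehicle signals in 165 of the 448 higher genes (1.43% of all genes) and at least 1.5-fold below the lowest in 142 of the 381 lower genes (1.23% of all genes). In 97 of the higher genes (21.7%) and 51 of the lower genes (13.4%), the vehicle 6 h array itself departed at least 1.5-fold, in the opposite direction, from the mean of the 1 h and 2 h vehicle arrays. For these genes the 6 h ratio rests in part on the vehicle 6 h array.

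The earlier times used other arrays and give separate readings of the same genes. Of the 448 genes higher at 6 h, 202 (45.1%) were at least 1.2-fold higher with activin at 2 h, against 10.1% of all genes, and 89 (19.9%) were at least 1.2-fold lower, against 15.5% of all genes. At 1 h, 136 (30.4%) were at least 1.2-fold higher, against 10.6% of all genes, and 69 (15.4%) were at least 1.2-fold lower, against 17.8%. Of the 381 lower genes, 149 (39.1%) were at least 1.2-fold lower at 2 h and 128 (33.6%) at 1 h, against 15.5% and 17.8% of all genes. Another 51 (13.4%) were at least 1.2-fold higher at 2 h and 60 (15.7%) at 1 h, against 10.1% and 10.6% of all genes. Both earlier ratios lay within 1.2-fold in 89 of the higher genes (19.9%) and 98 of the lower genes (25.7%), against 56.3% of all genes. In the 42 genes higher on all probe sets, the median over a gene's probe sets was also taken. It was at least 1.2-fold higher in 36 of them at 2 h and in 16 at 1 h. Of the 10 lower genes, 4 were at least 1.2-fold lower at 2 h and 2 at 1 h by that median. The share of all genes by that median was not counted, and the shares above are by the brightest probe set. Beside those shares, the 2 of 10 lower at 1 h is near the 17.8% of all genes.

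Genes of the pathway itself came from lists. Of 17 measured genes induced by TGF-beta or activin, of 34 listed, 5 were at least 1.5-fold higher and none was lower by that much. Over all genes, 3.9% were higher and 3.31% were lower by that much, and the same shares stand beside the other list counts. The median log2 ratio of the list was 0.10, beside −0.025 for all genes. Cdkn2b read 1869.5, 2722.2 and 3116.1 with activin at 1, 2 and 6 h, against 1065.9, 1553.7 and 1438.8 with vehicle, and was 2.17-fold higher at 6 h. All 3 activin signals lay above all 3 vehicle signals, and Cdkn2b had 1 kept probe set.

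Inhbb, which encodes the beta-B subunit of activin and inhibin B, read 3788.4, 6684.4 and 4923.2 with activin against 2589.0, 2873.4 and 2496.8 with vehicle, 1.97-fold higher at 6 h, and its sister probe set was 2.09-fold higher. Its activin signals were all above the vehicle signals, and the 2 h one was the highest. At 6 h the transcription factor gene Ets2 read 4019.1 with activin and 2268.7 with vehicle (1.77-fold), while its sister probe sets read 525.7 and 52.0, and 179.8 and 154.1, on the same arrays. Spsb1, a SOCS box gene, read 638.2 and 377.1 (1.69-fold), with a sister probe set 1.17-fold lower, and the homeodomain corepressor Tgif2 read 281.9 and 164.7 (1.71-fold), within the range of its vehicle arrays.

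On their brightest probe sets, the inhibitors that were furthest apart at 1 h were closer to vehicle at 6 h than at 1 h. Skil, a Smad corepressor, read 2999.3, 2023.3 and 1423.9 with activin at 1, 2 and 6 h, against 947.3, 924.3 and 1134.6 with vehicle, so that the log2 ratios were 1.66, 1.13 and 0.33. The inhibitory Smad gene Smad7 read 972.6, 914.3 and 688.7 with activin, against 416.4, 416.4 and 605.4 with vehicle. At 6 h its activin signal was the lowest of the activin series and its vehicle signal the highest of the vehicle series, and the ratio was 1.14-fold. The dimmer Smad7 probe set did not give that size, with 309.0 on the activin 6 h array and 106.5 on the vehicle 6 h array. Smad6 was 1.35-fold higher at 6 h, with log2 ratios of 1.36 and 1.65 at 1 and 2 h.

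**Figure D4:**
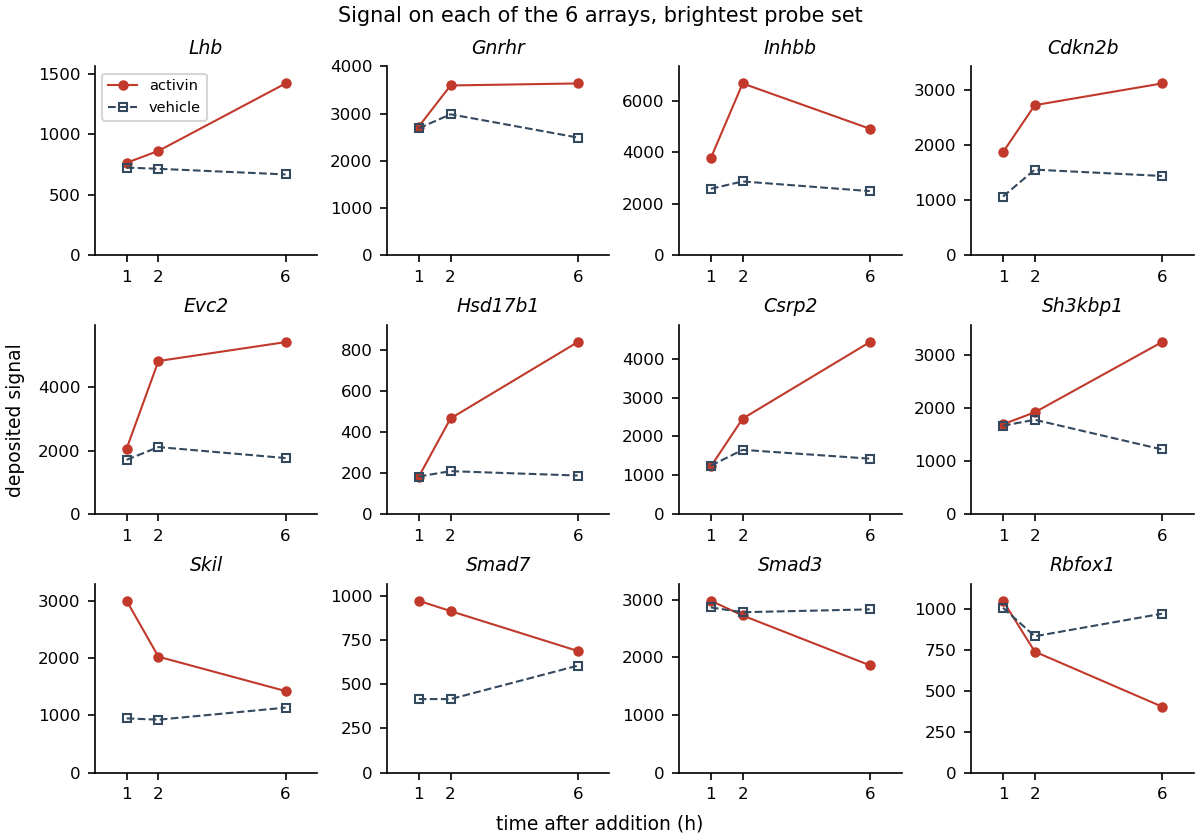
Deposited signal of the brightest probe set of 12 genes on each of the 6 arrays against time in hours, with activin as filled circles and vehicle as open squares; each point is 1 array and there are no error bars. Lhb, Gnrhr, Cdkn2b, Evc2, Hsd17b1, Csrp2 and Sh3kbp1 are each further above vehicle at 6 h than at 1 h or 2 h. Skil and Smad7 lie closer to vehicle at 6 h than at 1 h or 2 h. Smad3 and Rbfox1 are below vehicle at 6 h.

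Among receptors and Smads, 1 of 19 measured members was at least 1.5-fold higher and 1, Smad3, was lower, beside 3.9% and 3.31% of all genes. The median log2 ratio was −0.04. Smad2 read 3966.4 with activin and 4077.8 with vehicle, and Smad4 4361.7 with activin and 4480.1 with vehicle. The type I receptor gene Acvr1b read 1160.5 with activin and 1255.8 with vehicle, and the type II receptor gene Acvr2a 1405.7 and 1531.8. Another type I receptor gene, Acvr1, was 1.36-fold, 1.46-fold and 1.46-fold higher on its 3 kept probe sets, the brightest with 1442.1 with activin and 1062.9 with vehicle. Igsf1, a membrane protein of pituitary cells, read 440.5 with activin and 299.2 with vehicle (1.47-fold). The higher member was Ppm1a, a phosphatase known to act on receptor Smads, at log2 0.87 on its brightest probe set, while the other 5 kept probe sets of the gene lay between −0.26 and 0.02.

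Targets known from BMP signalling went both ways. Of 7 measured genes, 3 passed 1.5-fold upward and 1 downward, beside 3.9% and 3.31% of all genes, and the median log2 ratio was 0.47. At 6 h the helix-loop-helix inhibitor Id1 read 610.3 with activin and 360.5 with vehicle (1.69-fold), and Id2 read 448.8 and 271.2 (1.65-fold), with its sister at 1.29-fold. Id4 was lower, with 359.2 with activin and 609.8 with vehicle (1.70-fold), and its 2 sisters were also lower, at log2 −0.80 and −0.53. Hey1 was 2.10-fold higher at 6 h, or 1.73-fold with its dim vehicle signal of 127.9 raised to the limit. Its mean signal of 157.3 passed the limit through its activin 6 h signal of 268.2. Its place among the measured and higher genes of this list depends on that signal.

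Of 21 measured gonadotrope genes, Lhb alone was at least 1.5-fold higher and none was lower by that much, beside 3.9% and 3.31% of all genes. The median log2 ratio was 0.14. Lhb read 764.5, 862.6 and 1419.7 with activin at 1, 2 and 6 h, against 724.7, 714.7 and 668.3 with vehicle. Its vehicle signals were nearly level, and the activin 6 h signal was 2.12-fold above its own vehicle signal and 1.96-fold above the highest of the 3. Gnrhr, the receptor for gonadotropin-releasing hormone, read 2724.8, 3595.2 and 3638.0 with activin, against 2688.2, 2985.2 and 2493.0 with vehicle, 1.46-fold higher at 6 h, and its dim sister probe set read 277.9 and 94.4.

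None of the regulators of Lhb named here reached the 1.5-fold threshold at 6 h. At 6 h Nr5a1, which encodes SF-1, read 3040.2 with activin and 3281.8 with vehicle, and Pitx1 read 4919.7 and 4479.4. Egr1 read 314.6 with activin and 242.5 with vehicle, within the range of its vehicle arrays. Nr0b1, which encodes DAX-1, a repressor of SF-1, read 4320.3 and 5979.7 and was 1.38-fold lower, below all 3 vehicle arrays. Cga, the common alpha subunit, read 12802.4 with activin and 13746.0 with vehicle, and the LIM homeodomain gene Lhx3 read 1403.5 and 985.9 (1.42-fold). At 2 h Lhx3 read 2434.1 with activin and 1199.0 with vehicle (2.03-fold).

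Cell cycle lists held few genes past 1.5-fold. None of 29 measured mitosis genes was 1.5-fold apart. Of them 26 were below 0, with a median log2 ratio of −0.15. By their brightest probe sets the furthest were Cenpe (727.3 with activin and 1058.9 with vehicle, 1.46-fold lower), Cenpf (2730.8 and 3899.6, 1.43-fold), Kif20a (1014.1 and 1425.3, 1.41-fold) and Plk1 (1884.6 and 2589.0, 1.37-fold). The other kept probe set of Cenpe was 1.1-fold higher, and that of Cenpf was 1.19-fold lower. The median of all genes at 6 h was −0.025, so more genes lay below 0 than above it over all genes as well. Their share was not counted. Between vehicle arrays the median of the same list was −0.05 for 6 h over 2 h, 0.11 for 6 h over 1 h and 0.13 for 2 h over 1 h. In size the activin shift was little larger than 0.11 and 0.13, which pointed the other way. The shift was not tested. None of 29 DNA replication genes was 1.5-fold apart, with a median of 0.01. Of 19 G1 cyclins and inhibitors only Cdkn2b passed, while Cdkn2a was 1.45-fold higher.

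Wnt pathway genes numbered 19 measured, of which 3 were at least 1.5-fold higher and 2 lower, beside 3.9% and 3.31% of all genes. Beside Wnt5b, the related ligand gene Wnt5a read 259.1 with activin and 155.7 with vehicle (1.66-fold), and the feedback inhibitor Nkd1 read 236.9 and 74.3, a log2 ratio of 1.67 that came to 0.61 with the dim vehicle signal raised to the limit. The lower genes were Axin2, a target of canonical Wnt signalling, with 293.2 with activin and 491.7 with vehicle (1.68-fold), and Myc, with 170.6 and 300.8 (1.76-fold). Myc was also lower at 1 h and 2 h, at log2 −1.05 and −0.79, and all 3 activin signals lay below all 3 vehicle signals.

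The clock list had 2 of 19 genes lower and none higher, beside 3.31% and 3.9% of all genes, with a median log2 ratio of −0.11. They were Dbp and Nr1d1, a nuclear receptor that represses clock genes (413.3 with activin and 655.0 with vehicle, 1.58-fold lower), and Per3 was 1.45-fold lower. The vehicle signals of Nr1d1 were 719.7, 426.6 and 655.0 at 1, 2 and 6 h. Its activin 6 h signal was only 1.03-fold below the lowest of them. MAP kinase feedback genes had 1 of 13 higher, Errfi1, and 2 lower, beside 3.9% and 3.31% of all genes. Errfi1 read 479.3 with activin and 308.6 with vehicle (1.55-fold), while its other kept probe set read 246.1 and 338.2 and was 1.37-fold lower. Dusp1 read 396.8 with activin and 677.6 with vehicle (1.71-fold lower), and Dusp16 read 56.0 and 228.3, which is 1.47-fold lower, under the 1.5-fold threshold, with the dim activin signal raised to the limit. By the brightest probe set, none of the listed genes was 1.5-fold apart among 21 of cholesterol synthesis, 27 of the unfolded protein and integrated stress responses, 24 of secretory granules, 10 of heat shock, 15 cytosolic ribosomal proteins and 11 housekeeping genes, with medians between −0.07 and 0.05. Sel1l of the unfolded protein list was 1.41-fold higher on its brightest probe set and between 1.75-fold and 2.30-fold higher on the other 4.

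Small counts in other lists stand beside 3.9% of all genes higher and 3.31% lower. Immediate early genes had 1 of 16 lower, which was Myc. Apoptosis regulators had 2 of 20 lower by the brightest probe set. They were Bmf, whose other probe set pointed the opposite way, and Bid, which had 117.1 with activin and 186.0 with vehicle and whose log2 ratio of −0.67 came to −0.26 with the dim activin signal raised to the limit. Genes of GnRH, calcium and cyclic AMP signalling had 1 of 33 lower, the phosphodiesterase gene Pde4b (282.9 with activin and 498.1 with vehicle), and 1 higher, the calcium channel gene Cacna1d. Cacna1d read 208.4 with activin and 125.6 with vehicle, and its log2 ratio of 0.73 came to 0.43, under the 1.5-fold threshold, with the dim vehicle signal raised to the limit. Among the endothelial markers Pecam1, an adhesion molecule, read 700.7, 952.3 and 1081.3 with activin at 1, 2 and 6 h, against 527.3, 576.0 and 530.5 with vehicle, 2.04-fold higher at 6 h. The endothelial cadherin gene Cdh5 read 981.2 with activin and 959.1 with vehicle. Pomc, the corticotrope hormone precursor, read 315.0 with activin and 159.3 with vehicle (1.98-fold). The lists were chosen with results of these data known, and their counts are descriptions.

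**Figure D5:**
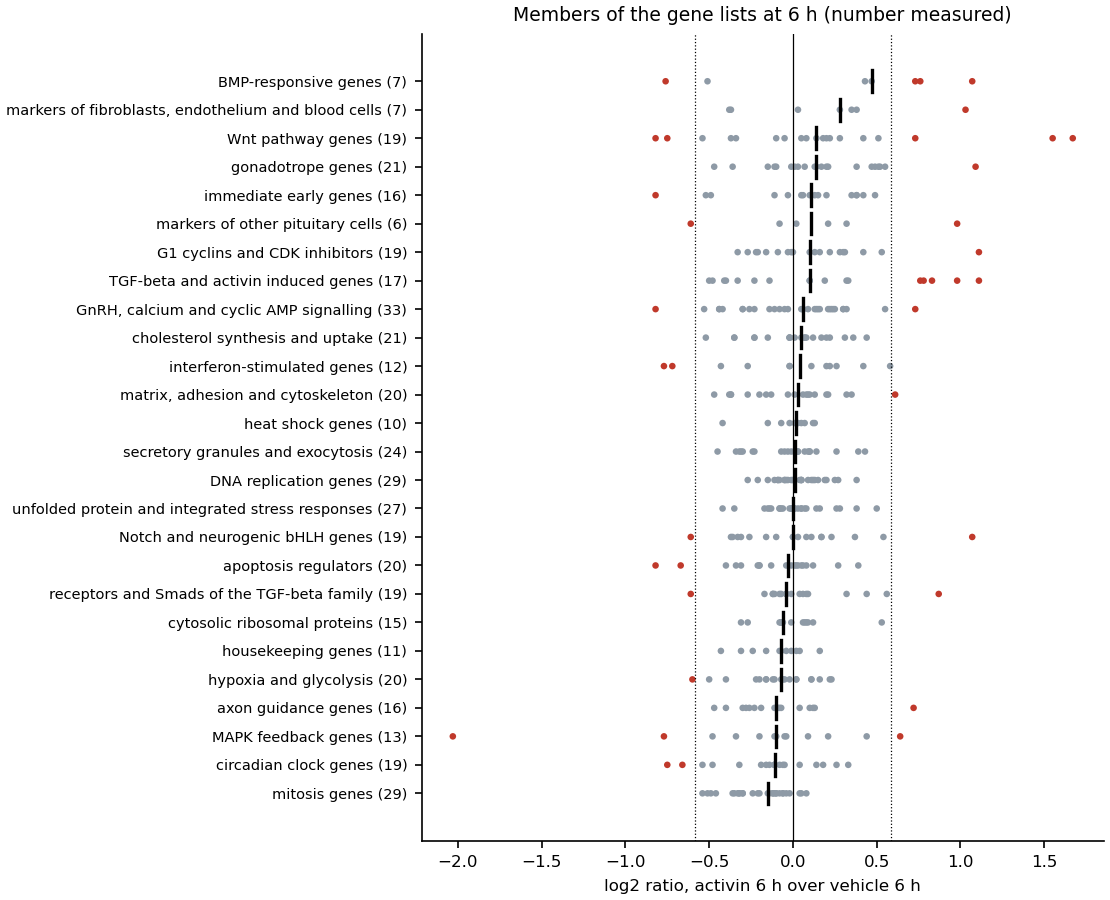
Log2 ratio of activin 6 h over vehicle 6 h for each measured member of 26 gene lists, sorted by their median (black bar), with the number measured in parentheses; red points are at least 1.5-fold apart (dotted lines). Medians lie between −0.15 for mitosis genes and 0.47 for BMP-responsive genes.

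Sister probe sets of some genes pointed in opposite directions by at least 1.5-fold, in 17 genes (0.336% of those with sisters) with dim signals raised to the limit. Ctdsp2, a phosphatase known to act on the Smad linker, read 1366.7 with activin and 2166.8 with vehicle on its brightest probe set, while its sisters read 992.8 and 581.6, and 676.5 and 281.8. Nacc1 read 130.2 and 334.7 on the brightest and 265.5 and 122.1, and 257.0 and 147.0, on the others. Bmf, a gene of cell death, read 184.8 with activin and 326.4 with vehicle on 1 probe set, and on the other was 2.23-fold higher after raising a dim vehicle signal to the limit. Cdc73, Rtel1 and Soga1 were the other genes with the widest gaps. No direction is given for these genes.

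The authors' deposited table for 6 h lists signed folds for part of the genes that its header counts. Of its 16 entries, 13 could be matched to a probe set by symbol, and all 13 had the same direction in the deposited signals, 10 of them by at least 1.5-fold. The signal limit was passed by 11 of the 13, and the other two, Slc1a3 and Neb, each had a dim signal on 1 of the 2 arrays at 6 h and are counted here. The authors' deposited table gives a fold of 1.53 for Lhb, where the signals give 2.12, 2.17 for Inhbb against 1.97, and 1.97 for Smad7 against 1.14. For Evc2 the authors' deposited table gives 1.81, and the signals give 3.07. In 5 of the 13 the authors' deposited fold and the signal fold were over 1.5 times apart on the probe set compared. Each symbol was compared on 1 probe set, though Smad7 has 2 and Slc1a3 has 6, of which 5 had the authors' direction. Whether other probe sets give those folds was not tested. A second entry of the authors' deposited table labelled as Lhb, at −1.55, carries the description of a glutamate receptor and was set aside.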

How the data were processed

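The values are intensity values, 1 linear signal per probe set and array, deposited by the authors and made with GCOS 1.4 according to the submitters' processing notes; detection calls were not used here. The authors also deposited tables of signed folds, a score in which lower genes are negative, limited by fold and by a difference in signal of 100, per the file headers. The annotation named 1 gene for 34945 probe sets, several for 932 and none for 9160; symbols were updated to RefSeq (GRCm38.p6) for 34741. Ratios were taken as deposited, with a pseudocount of 0, in Python 3.11.15 with pandas 2.3.3 and numpy 2.4.6, and drawn with matplotlib 3.10.9. There was 1 array a side, so no test, error or interval is given, and precision is limited by the number of arrays. The counting step was tested on simulated data.

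The gene lists (26, with 469 of 663 entries measured), the genes named and the alternatives were chosen with earlier results of these data known, and the motifs and promoters after the values were seen. Named genes were the 12 highest and 12 lowest (of which there were 10) by the median of agreeing sister probe sets, the 8 highest and 8 lowest with a single probe set and a signal of at least 500 on the brighter of the 2 arrays at 6 h, a fixed set of activin and gonadotrope genes, up to 4 members of each list, and 6 genes with opposite sister probe sets; C2cd5 and Itgb7 flank the signal limit, and a few further list members (Bid, Cacna1d, Cdh5, Nkd1, and receptors and Smads) were named after their values were seen. Alternatives were no filter, a limit of 500, median centring, quantile normalization, a pseudocount of 50, dim signals raised to the limit, the mean of the 3 vehicle arrays, a 2-fold threshold and the median over all kept probe sets of a gene.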

Additional observations from a re-analysis of the deposited data

Results flagged for a closer look

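In 3 of the genes chosen by the naming rule, the log2 ratio of activin over vehicle pointed one way at 6 h and the other way at an earlier time, by at least 1.5-fold on both occasions. Each time has 1 array a side, and the difference between times was not tested. Hey1, a Notch and BMP target, was at −0.7 at 2 h and 1.07 at 6 h, but both ratios rest on a signal under the limit, 99.6 on the activin 2 h array (162.3 with vehicle) and 127.9 on the vehicle 6 h array. Pomk was at 0.7 at 1 h and −0.82 at 6 h. Smo was at 2.44 at 1 h and −1.61 at 6 h, and its vehicle signals were 143.7, 643.4 and 913.7 at 1, 2 and 6 h. Outside that rule, Nkd1 was at −0.93 at 1 h and 1.67 at 6 h, or 0.61 at 6 h with its dim vehicle signal raised to the limit. The activin 1 h array, used in these 1 h ratios, is the one with the bright 18S control.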

How the results depend on the processing

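No paired analysis was possible because each treatment and time has 1 array, and no array could be left out for the same reason. The counts of genes at least 1.5-fold higher and lower, 448 and 381, were 2127 and 1604 without a filter, 146 and 124 at a limit of 500, and 113 and 77 at 2-fold. Those with all sister probe sets agreeing, 42 and 10, were 136 and 75 without a filter, 27 and 5 at a limit of 500, 10 and 1 at 2-fold, and the 10 lower ones became 5 with a pseudocount of 50. Against the mean of the 3 vehicle arrays the counts were 317 and 307, of which 252 and 233 were among the 448 and 381. The higher share of calls was 54.0%, and between 50.8% and 59.5% over the alternatives.

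Without a filter the list medians moved to 0.03 (BMP-responsive), −0.04 (other pituitary cells), 0.09 (fibroblast, endothelium and blood), −0.11 (apoptosis) and 0.20 (interferon). At a limit of 500 they moved to −0.05 (GnRH and calcium), 0.11 (Notch), −0.00 (Wnt), 0.05 (G1), −0.03 (matrix) and −0.15 (axon guidance). Against the 3 vehicle arrays they moved to 0.24 (TGF-beta and activin), 0.61 (BMP-responsive), −0.01 (immediate early), −0.05 (GnRH and calcium), 0.02 (G1) and −0.09 (apoptosis). With the median over all kept probe sets of a gene they moved to 0.26 (TGF-beta and activin), −0.00 (receptors and Smads), 0.19 (other pituitary cells), −0.03 (GnRH and calcium), 0.05 (unfolded protein) and 0.01 (housekeeping). That setting also turned the log2 ratios of Bmf (1.18), Ctdsp2 (0.77), Nacc1 (0.81) and Ppm1a (−0.05). The cause was not tested. Of 67 named genes at least 1.5-fold apart, 63 kept their sign under the 8 alternatives for single genes and 48 stayed past 1.5-fold under all of them.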

Other observations

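The authors' deposited table of genes different at all 3 times lists 46 entries, of which 27 matched 1 probe set by accession, and 26 of these had the same direction in the 6 h signals. At 6 h Cited2, a regulator that binds CBP and p300, read 504.0 with activin and 215.7 with vehicle, and the authors' deposited table gives 1.71 for it. Sel1l, an adaptor of protein degradation in the endoplasmic reticulum, read 3340.5 and 1455.4 on the matched probe set, against 2.11 in the authors' deposited table, while its brightest probe set read 6772.7 and 4792.8. Ackr3, a scavenging chemokine receptor, read 702.4 with activin and 375.3 with vehicle. The exception was Pgf, placental growth factor, which read 180.3 with activin and 277.5 with vehicle, while the authors' deposited table gives it 1.41.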
